A study of Homo sapiens with 6 samples.

Results

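CTHRC1 and the genes of noncanonical WNT5 signalling were followed in 786-O cells after ablation of PLOD2. The 10 genes were taken by name from a table of 58395 genes: the secreted cofactor CTHRC1, the ligands WNT5A and WNT5B, the receptors ROR1, ROR2, RYK, FZD2 and FZD7, the planar cell polarity protein VANGL1, and the antagonist DKK1. They were picked with the difference between both groups already known, so their own values are given as a description, without a p-value. The study compared 3 RNA-seq libraries of cells with a control guide (sgControl) and 3 libraries of cells in which PLOD2 was targeted by CRISPR/Cas9 (sgPLOD2). By its title the series belongs to the development of a treatment that would make sarcomatoid renal cell carcinoma differentiate. 786-O is an established human clear cell renal carcinoma line without functional VHL, and it was grown in the same medium with serum in both groups. The number of guides, and whether the targeted cells were a pool or 1 clone, are not stated in the labels. Nor do they say whether each replicate came from a culture of its own, and a p-value here covers only library-to-library spread, which may be technical.

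WNT5A and WNT5B are secreted ligands that mostly act without beta-catenin. They bind Frizzled receptors together with the receptor tyrosine kinase family members ROR1, ROR2 or RYK, and act through Dishevelled on the planar cell polarity pathway, which steers the cytoskeleton through small GTPases and JNK, and on calcium-dependent enzymes. CTHRC1 is a secreted glycoprotein with a short collagen-like stretch that can bind Wnt ligands and their receptors and favour the polarity branch. DKK1 blocks the other branch, by binding the co-receptors LRP5 and LRP6 that beta-catenin signalling needs.

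PLOD2, which encodes the collagen lysyl hydroxylase LH2, was at 26.8, 25.7 and 21.5 FPKM (a fragment count corrected for gene length and for the library's mapped total) in the sgControl libraries and at 5.98, 10.1 and 6.64 FPKM in sgPLOD2. Its sgPLOD2 mean was 30.7% of the control mean (limma on log2(FPKM + 1), difference -1.61 ± 0.18 SE, adjusted p = 0.000509). An exact permutation test of both groups gave p = 0.1, the smallest that 3 against 3 libraries allow. The groups also stood apart elsewhere: HIF1A averaged 0.420 ± 0.115 FPKM in sgControl and 37.7 ± 1.84 FPKM in sgPLOD2 (SD, n = 3). The median difference of all tested genes on a chromosome ran from -0.25 on chromosome 16 to 0.54 on chromosome 14, against 0.06 over all 10469 tested genes, and the 37 mitochondrial genes had a median of -0.83. An effect of PLOD2 loss and a difference between the cell populations carrying each guide cannot be told apart in this design. Renal markers were present in all libraries, with PAX8 at 22.6 to 36.3 FPKM and KRT8 at 80.2 to 127.8 FPKM, while CDH1 did not exceed 0.0049 FPKM. Of 10 such markers 7 were tested: the nephron transcription factor gene LHX1 (1.68 ± 0.142 to 6.63 ± 0.437 FPKM) and the kidney cadherin gene CDH6 (4.11 ± 0.551 to 6.80 ± 0.390 FPKM) rose, PAX2 fell (1.88 ± 0.185 to 1.28 ± 0.135 FPKM), and 4, PAX8 and KRT8 among them, were not called. Their part in the results was not tested. The hypoxia target CA9 reached 0.285 to 0.368 FPKM in sgPLOD2 and was listed at 0 in all controls. Among 10 fibroblast markers, DCN, FAP and DPT were listed at 0 in all 6 libraries, and the summed level was 0.71 to 0.987 FPKM in sgControl and 3.38 to 3.69 FPKM in sgPLOD2. Most of the latter came from COL1A1 (0.489 ± 0.0690 against 2.94 ± 0.207 FPKM), and the part of these genes in the results was not tested. The 6 endothelial markers summed to at most 0.188 FPKM, and CD3E was listed at 0 throughout, with CD68 making up most of the leukocyte sum (11.5 to 18.3 FPKM in sgControl, 5.59 to 6.63 FPKM in sgPLOD2).

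Promoters are shown for 4 genes on which the comparison turns: WNT5A and ROR1, which were high in sgPLOD2, ROR2, the close relative of ROR1 that was not, and DKK1, the antagonist that was barely detected. Each line is the 250 bases before a RefSeq transcript start (GRCh38.p14), 5′ to 3′ on the gene's strand, at chr3:55481399-55481648 (minus strand) for WNT5A, chr1:63773767-63774016 (plus strand) for ROR1, chr9:91950229-91950478 (minus strand) for ROR2 and chr10:52314031-52314280 (plus strand) for DKK1. Capitals mark a match to a searched motif on either strand.
WNT5A: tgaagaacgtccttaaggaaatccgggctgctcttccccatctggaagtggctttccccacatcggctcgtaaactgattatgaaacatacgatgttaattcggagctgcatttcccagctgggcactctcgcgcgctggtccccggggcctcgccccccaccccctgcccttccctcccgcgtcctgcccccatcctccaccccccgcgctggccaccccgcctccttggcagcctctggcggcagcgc
ROR1: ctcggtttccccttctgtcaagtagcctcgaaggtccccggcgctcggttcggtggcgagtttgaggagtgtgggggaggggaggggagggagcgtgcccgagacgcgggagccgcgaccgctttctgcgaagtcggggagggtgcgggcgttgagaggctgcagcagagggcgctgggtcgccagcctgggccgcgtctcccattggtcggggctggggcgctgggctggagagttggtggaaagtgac
ROR2: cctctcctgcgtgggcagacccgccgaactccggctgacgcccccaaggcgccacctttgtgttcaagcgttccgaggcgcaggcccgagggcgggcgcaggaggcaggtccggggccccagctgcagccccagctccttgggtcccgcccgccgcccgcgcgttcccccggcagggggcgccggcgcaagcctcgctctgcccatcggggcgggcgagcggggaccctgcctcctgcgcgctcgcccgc
DKK1: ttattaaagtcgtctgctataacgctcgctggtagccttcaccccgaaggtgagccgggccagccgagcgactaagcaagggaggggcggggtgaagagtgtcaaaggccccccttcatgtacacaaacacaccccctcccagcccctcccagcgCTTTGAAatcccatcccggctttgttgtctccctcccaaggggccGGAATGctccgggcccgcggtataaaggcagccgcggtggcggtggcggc
The WNT5A window lies inside the annotated gene but in none of its exons, the ROR1 and ROR2 windows lie just before the gene, and the DKK1 window overlaps an exon of the antisense lncRNA PRKG1-AS1. The motifs searched were CTTTGAA and CTTTGAT (the TCF/LEF factors of the beta-catenin branch), TGANTCA (AP-1, at the end of the JNK branch), GGAATG (TEAD) and ACGTG (the core of the hypoxia response element), on both strands. Windows of this kind held them in 3.80%, 2.26%, 6.57%, 11.9% and 18.5% of 35116 RefSeq promoters. The WNT5A, ROR1 and ROR2 windows held none of the 5, which says only that these letters are not in these windows. DKK1 held CTTTGAA with its first base at -95 from the transcript start and GGAATG at -50, and 1 of 2 VANGL1 windows held GGAATG at -240. Of the 10 genes, 7 had a RefSeq window, 10 windows in all, and CTHRC1, FZD2 and FZD7 had none in the table used.

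CTHRC1 (ENSG00000164932, chr8:103371538-103382989, plus strand) had the largest difference of the 10 genes. It was at 3.22, 3.89 and 3.70 FPKM in the sgControl libraries and at 102.1, 100.3 and 83.4 FPKM in the sgPLOD2 libraries. All 3 sgPLOD2 libraries were far above all 3 controls, and the libraries within each group lay close together. The mean went from 3.60 ± 0.343 to 95.3 ± 10.3 FPKM (SD, n = 3), a ratio of 26.4, and the difference on the log2(FPKM + 1) scale was 4.38 ± 0.11 (SE). Ranked by that difference, CTHRC1 was number 7 of 10469 tested genes. In bulk RNA, more cells of a kind that expresses a gene and more RNA per cell cannot be told apart, for CTHRC1 or any gene below.

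WNT5A (ENSG00000114251, chr3:55465715-55490539, minus strand), the main noncanonical ligand, was at 2.15, 2.06 and 1.89 FPKM in sgControl and at 13.2, 16.3 and 14.3 FPKM in sgPLOD2. Again the groups did not overlap, and the control libraries spanned a narrow range. The means were 2.03 ± 0.134 and 14.6 ± 1.56 FPKM (SD, n = 3), a ratio of 7.19, with a difference of 2.36 ± 0.10 (SE) on the log2(FPKM + 1) scale. The lncRNA WNT5A-AS1 lies within WNT5A on the opposite strand (chr3:55487699-55488308). It was listed at 0.0975, 1.66 and 0.718 FPKM in sgControl and at 6.83, 12.1 and 10.8 FPKM in sgPLOD2. Both genes were thus listed higher in every sgPLOD2 library. Because strand use in counting is not given in the sources used here, their reads cannot be told apart. A rise of WNT5A-AS1 apart from that of WNT5A is therefore not established.

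WNT5B (ENSG00000111186, chr12:1529891-1647212, plus strand), the close relative of WNT5A, was low in sgControl, at 0.402, 0.313 and 0.421 FPKM. It reached 3.57, 3.21 and 3.52 FPKM in sgPLOD2, without overlap between the groups. The mean went from 0.378 ± 0.0576 to 3.43 ± 0.194 FPKM (SD, n = 3), a ratio of 9.07. WNT5B passed the filter of a mean of at least 1 FPKM over the 6 libraries through sgPLOD2 alone. Its difference of 1.69 ± 0.08 (SE) on the log2(FPKM + 1) scale is held down by the pseudocount: with 0.1 in place of 1 it was 2.89. The protein-coding gene FBXL14 overlaps WNT5B on the opposite strand, and was at 3.33 ± 0.561 FPKM in sgControl and 4.38 ± 0.108 FPKM in sgPLOD2.

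**Figure D1:**
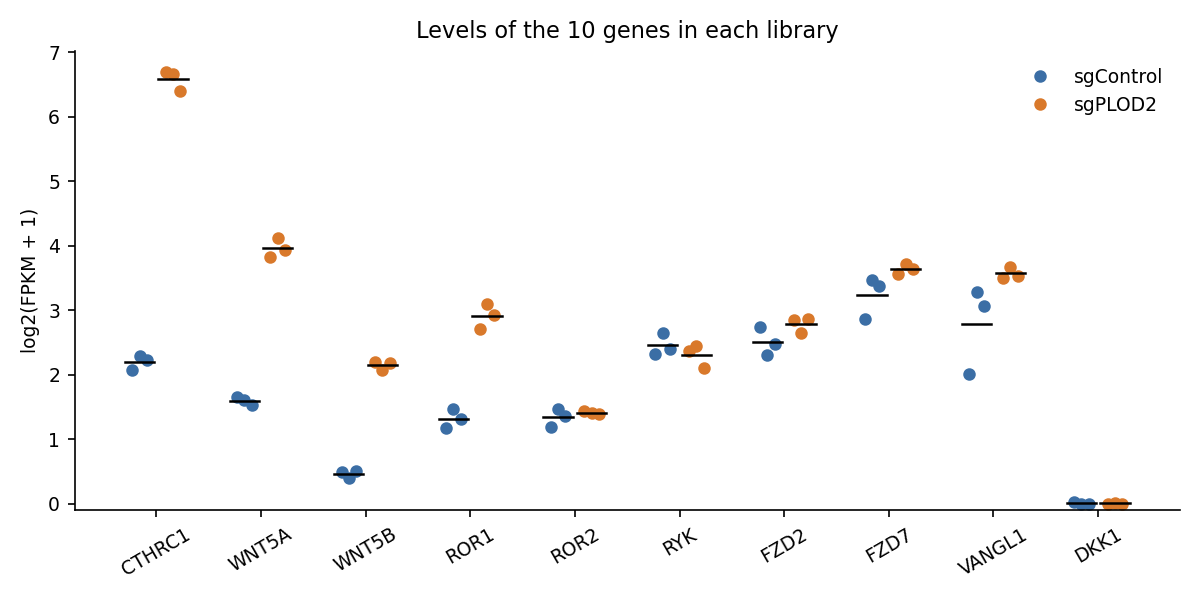
Level of each of the 10 genes as log2(FPKM + 1) in the 6 libraries (blue, sgControl; orange, sgPLOD2; points, libraries; bars, group means). CTHRC1, WNT5A, WNT5B and ROR1 separate widely, ROR2, RYK and FZD2 overlap between the groups, and VANGL1 has 1 low control library at 3.02 FPKM.

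ROR1 (ENSG00000185483, chr1:63774017-64181498, plus strand) encodes a receptor with a largely inactive kinase domain that binds WNT5A. It was at 1.26, 1.76 and 1.50 FPKM in sgControl and at 5.51, 7.54 and 6.63 FPKM in sgPLOD2. The groups did not overlap: the lowest sgPLOD2 library was above the highest control. The means were 1.50 ± 0.249 and 6.56 ± 1.01 FPKM (SD, n = 3), a ratio of 4.36, with a difference of 1.59 ± 0.13 (SE). The antisense lncRNA ROR1-AS1 averaged at most 0.0155 FPKM in either group.

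ROR2 (ENSG00000169071, chr9:91563091-91950228, minus strand), the other ROR receptor, was at 1.29, 1.78 and 1.56 FPKM in sgControl and at 1.71, 1.66 and 1.61 FPKM in sgPLOD2. The sgPLOD2 libraries fell inside the control range. The difference was 0.07 ± 0.10 (SE), and it turned to -0.11 with quantile normalization. In sgControl the ROR genes were at like levels, with ROR1 making up 49.5%, 49.7% and 48.9% of the summed FPKM of both. In sgPLOD2 that share was 76.3%, 81.9% and 80.4%.

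RYK (ENSG00000163785, chr3:134065303-134250859, minus strand), an atypical Wnt receptor of the kinase family, was at 4.01, 5.24 and 4.26 FPKM in sgControl and at 4.17, 4.43 and 3.32 FPKM in sgPLOD2. The groups overlapped, with a difference of -0.15 ± 0.13 (SE). With the median difference of each chromosome removed it was -0.48, since the median on chromosome 3 was 0.33.

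FZD2 (ENSG00000180340, chr17:44557484-44561262, plus strand), a Frizzled receptor of WNT5A, was at 5.67, 3.94 and 4.54 FPKM in sgControl and at 6.18, 5.29 and 6.29 FPKM in sgPLOD2. The lowest sgPLOD2 library was below the highest control, and the difference was 0.28 ± 0.13 (SE). It was 0.83 once a smooth trend of the difference on GC content and transcript length was removed, and FZD2 was then called higher. FZD7 (ENSG00000155760, chr2:202034587-202038445, plus strand), which serves both Wnt branches, was at 6.30, 10.1 and 9.38 FPKM in sgControl and at 10.8, 12.1 and 11.4 FPKM in sgPLOD2. The groups did not overlap, but the gap between them was small beside the spread of the controls. Its difference of 0.40 ± 0.16 (SE) was 0.21 without sgControl replicate 1.

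VANGL1 (ENSG00000173218, chr1:115641970-115698224, plus strand), a membrane protein of the planar cell polarity core, was at 3.02, 8.70 and 7.39 FPKM in sgControl and at 10.4, 11.8 and 10.6 FPKM in sgPLOD2. All sgPLOD2 libraries were above all controls, and sgControl replicate 1 was far below the other controls. The difference was 0.79 ± 0.31 (SE), and 0.40 without that library. Its paralog VANGL2 did not exceed 0.0102 FPKM in any library. Over the 9 tested genes, sgControl replicate 1 held the lowest control value for 6, and its mitochondrial share of FPKM was 12.9%, against 6.01% to 7.50% in the other libraries. The part of this library's composition in the values was not tested.

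DKK1 (ENSG00000107984, chr10:52314281-52318042, plus strand) was listed at 0 in 4 of 6 libraries, at 0.0187 FPKM in sgControl replicate 1 and at 0.0130 FPKM in sgPLOD2 replicate 2. It missed the filter and was not tested. In the authors' deposited table its mean normalized count was 1.77, and no direction can be read at that level.

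Counted together, 9 of the 10 genes were tested. Of these, 4 (CTHRC1, WNT5A, WNT5B and ROR1) were past the limma threshold of an adjusted p of 0.05 and higher in sgPLOD2, and 0 were lower. At an unadjusted limma p under 0.05, 6 were higher, with FZD7 and VANGL1 added, and 0 lower. The share of all tested genes past that looser limit was not computed. The adjusted threshold was passed upward by 29.5% of all tested genes and downward by 23.5%. Since the genes were picked on this contrast, nothing is read from their share. In 6 of the 10 every sgPLOD2 library was above every control, as in 34.7% of tested genes, and in 0 every sgPLOD2 library was below, as in 28.0%. Their median difference was 0.79, beside 0.06 over all tested genes. The count of 4 became 6 without sgControl replicate 1, which added FZD2 and VANGL1, and 6 without sgControl replicate 2, which added FZD7 and VANGL1.

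The authors' deposited table also called 4 of these genes higher, the same ones, and 0 lower, where 18.5% of its genes were higher and 17.0% lower. Its log2 fold changes were 4.63 ± 0.153 (SE) for CTHRC1, 3.09 ± 0.189 for WNT5B, 2.75 ± 0.145 for WNT5A and 2.03 ± 0.192 for ROR1. There WNT5B stood above WNT5A, the reverse of the log2(FPKM + 1) scale. In the authors' deposited table the log2 fold changes of the others were 0.68 ± 0.312 for VANGL1, 0.32 ± 0.203 for FZD7, 0.23 ± 0.195 for FZD2, 0.01 ± 0.179 for ROR2 and -0.28 ± 0.176 for RYK.

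The order of the levels was different in the groups. In sgControl the receptors and VANGL1 led, on the FPKM scale, which is per gene length: FZD7 at 8.60 ± 2.03, VANGL1 at 6.37 ± 2.97, FZD2 at 4.72 ± 0.879 and RYK at 4.50 ± 0.652 FPKM (SD, n = 3). Neighbours among these overlapped in their libraries, so their order is not resolved. CTHRC1, WNT5A, the ROR pair and WNT5B followed in that order, with only ROR2 and ROR1 overlapping. In sgPLOD2 the transcripts of CTHRC1 and then WNT5A led, without overlap with each other or with FZD7. FZD7 overlapped with VANGL1, ROR1 with FZD2, and RYK with WNT5B, while ROR2 at 1.66 ± 0.0476 FPKM was below all but DKK1.

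Over all 19 WNT genes, WNT5A and WNT5B included, the summed level was 12.1, 9.38 and 9.75 FPKM in the control libraries, against 42.2, 46.4 and 46.3 FPKM in sgPLOD2. Each sgPLOD2 library thus carried several times more WNT transcript than any control. WNT7B, which can signal through beta-catenin, was the leading ligand in both groups, with 71.1% ± 2.88 of the sum in sgControl and 55.7% ± 2.06 in sgPLOD2 (SD, n = 3). WNT5A made up 19.7% ± 2.15 and then 32.5% ± 2.31, and WNT5B 3.65% ± 0.572 and then 7.66% ± 0.774. Within the WNT5 pair the balance was close to steady: WNT5A was 84.3% ± 2.52 of their sum in sgControl and 80.9% ± 2.46 in sgPLOD2.

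The Frizzled sum was 40.2 ± 2.12 FPKM in sgControl and 46.1 ± 4.31 FPKM in sgPLOD2, but its parts differed. FZD7 held 21.3% ± 4.32 and 24.9% ± 1.22 of it, and FZD2 11.8% ± 2.73 and 13.0% ± 2.28 (SD, n = 3). FZD8 took 29.6% ± 1.80 in sgControl and 4.97% ± 0.471 in sgPLOD2, and FZD6 18.5% ± 2.29 and 37.2% ± 3.67. Among the kinase family receptors ROR1, ROR2, RYK, PTK7 and MUSK, RYK made up 58.3% ± 1.33 of 7.73 FPKM in sgControl and 22.9% ± 3.40 of 17.4 FPKM in sgPLOD2. There ROR1 was the largest, at 37.7% ± 4.21, and PTK7 came next at 29.9% ± 4.81.

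**Figure D2:**
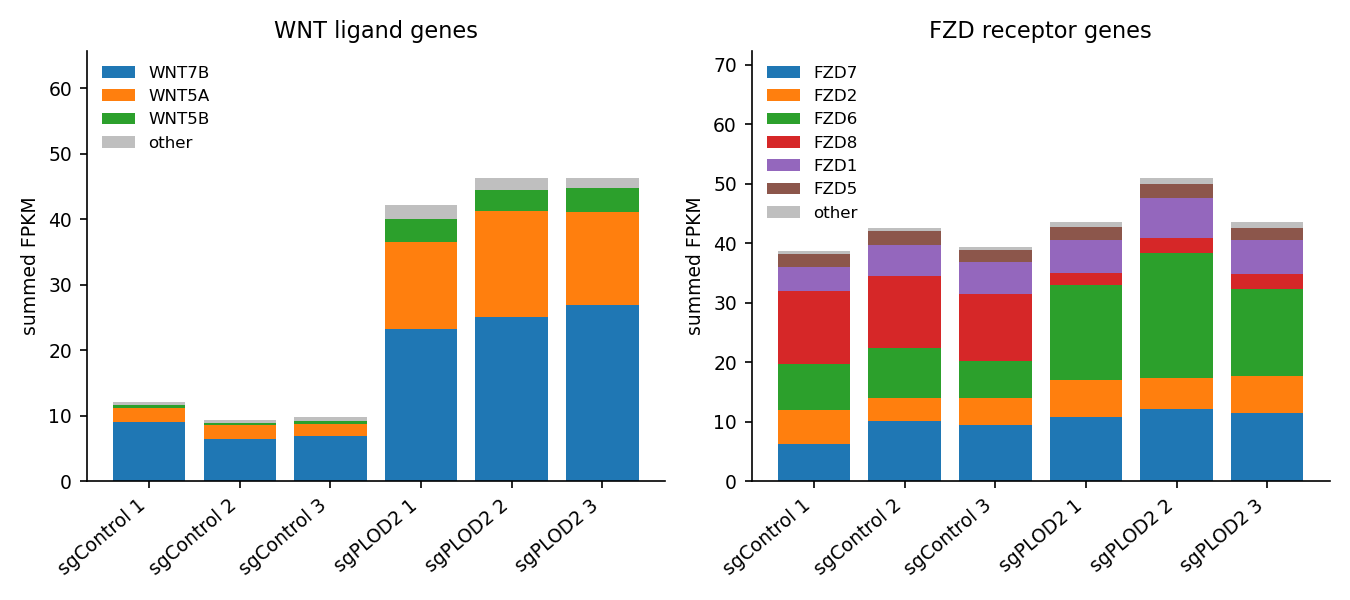
Stacked FPKM of the WNT ligand genes (left) and the Frizzled receptor genes (right) in each of the 6 libraries, coloured by gene. The WNT sum is 9.38 to 12.1 FPKM in sgControl and 42.2 to 46.4 FPKM in sgPLOD2, while the Frizzled sums lie closer together, with less FZD8 and more FZD6 in sgPLOD2.

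The tested genes with the profile nearest to CTHRC1 were sought by the Euclidean distance between centred log2(FPKM + 1) values over the 6 libraries. The nearest was HIF1A, the oxygen-regulated transcription factor subunit, at a distance of 0.495. SCD, a desaturase of fatty acid synthesis, came next at 0.537, with 3.45 ± 0.415 FPKM in sgControl and 72.0 ± 3.32 FPKM in sgPLOD2 (SD, n = 3). SRGN, a proteoglycan core protein, followed at 0.771, the basement membrane protein gene NID2 at 0.943 and the BMP antagonist gene CHRDL1 at 1.06. For WNT5A the nearest was ANTXR1, an anthrax toxin receptor that binds matrix, at a distance of 0.120 and with levels of 1.07 ± 0.168 and 9.23 ± 0.698 FPKM. GNG4, the matrix protease gene ADAMTS5, the homeobox gene HOXA7 and B3GNT7 lay at 0.235 to 0.247. A short distance over 6 libraries in 2 groups shows mainly a difference of like size between the groups.

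Because whole chromosomes differed between the groups, each gene was set beside the 10 nearest tested genes on either side. Over all tested genes 29.5% were called higher and 23.5% lower, and these shares stand beside each count below. The 20 neighbours of CTHRC1 had a median difference of 0.03, with 5 called higher and 1 lower, and the highest of them was at 1.47. FZD6 was among its higher neighbours, at 1.10. WNT5A-AS1 passed the filter through sgPLOD2 alone, and its reads cannot be told apart from those of WNT5A. Around WNT5A the median was 0.65, and 16 of 20 neighbours, WNT5A-AS1 among them, were called higher and 0 lower. The next region of this kind was that of VANGL1, with a median of 0.56, 11 higher and 0 lower, on a chromosome with a median of -0.07. ROR1, on the same chromosome, had neighbours with a median of 0.39, 12 higher and 2 lower, with the Wnt secretion gene WLS among the higher. WNT5B had 15 neighbours, being near the chromosome end, with a median of 0.28, 6 higher and 1 lower. Around ROR2 the neighbours were lower, with a median of -0.32, 1 higher and 10 lower, whereas ROR2 itself was at 0.07. DKK1, barely detected, lay among neighbours with a median of 0.37, 11 higher and 0 lower. With the chromosome medians removed, the differences were 4.35 for CTHRC1, 2.03 for WNT5A, 1.76 for WNT5B and 1.66 for ROR1. The part of these regional differences in the values of WNT5A, ROR1 and VANGL1 was not tested.

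**Figure D3:**
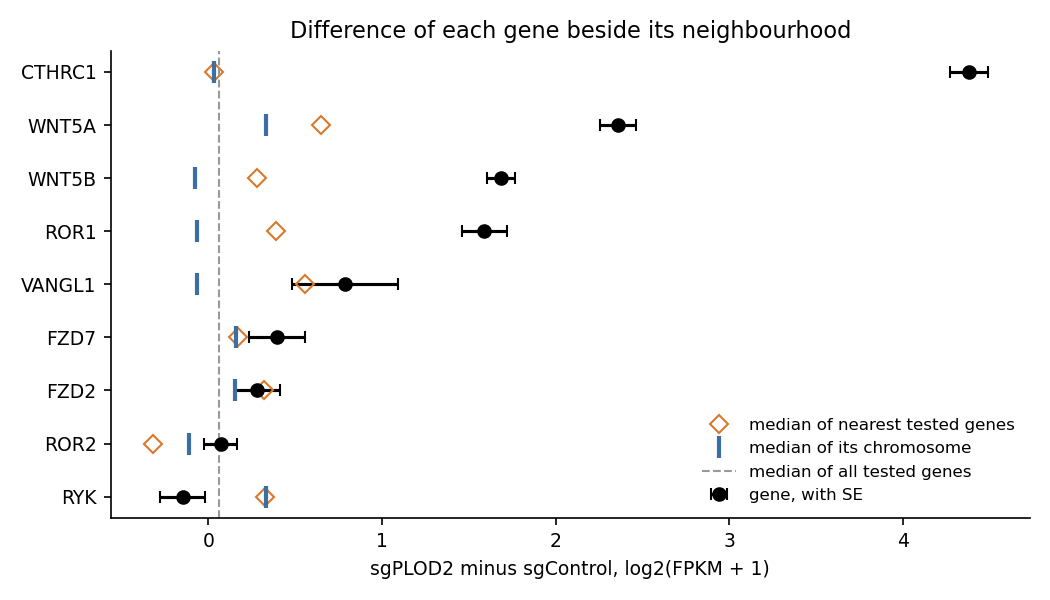
Difference of sgPLOD2 minus sgControl on the log2(FPKM + 1) scale for the 9 tested genes (black points, estimate; bars, SE). Open diamonds are the median of the nearest tested genes, vertical ticks that of the chromosome, and the dashed line that of all tested genes. CTHRC1 at 4.38 stands farthest from 0, WNT5A, WNT5B and ROR1 lie between 1.59 and 2.36, and RYK is the 1 gene below 0.

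**Figure D4:**
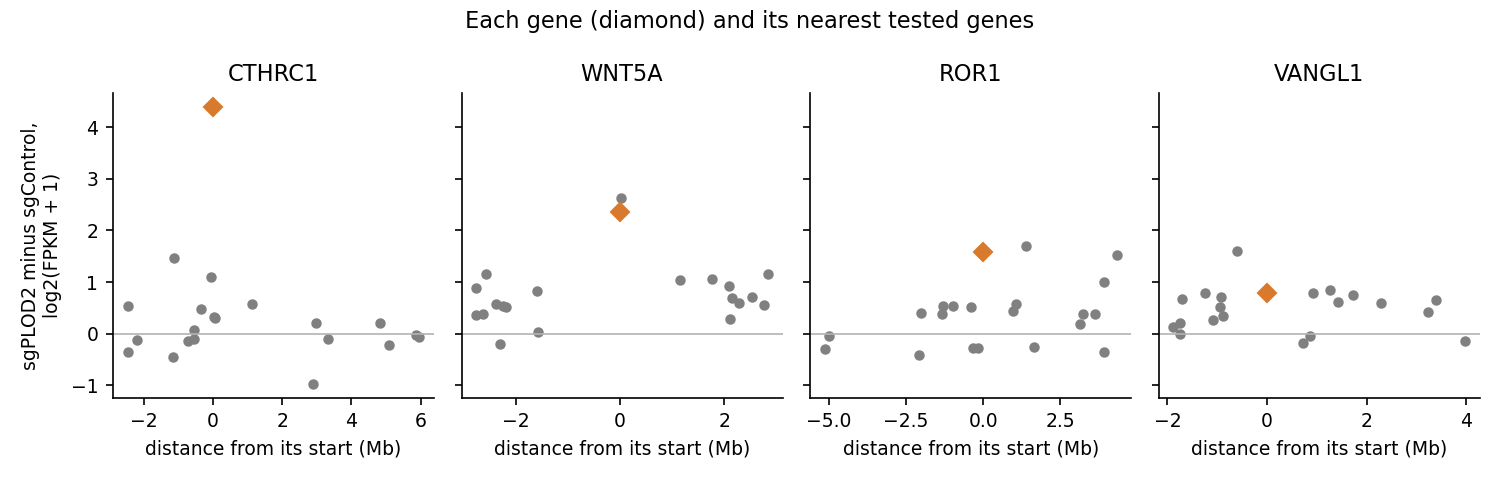
Difference of sgPLOD2 minus sgControl (log2(FPKM + 1)) against distance in Mb from the gene's start, for CTHRC1, WNT5A, ROR1 and VANGL1 (orange diamonds) and their 20 nearest tested neighbours (grey points). CTHRC1 stands at 4.38 over neighbours with a median of 0.03, while the neighbours of WNT5A and VANGL1 lie mostly above 0.

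The rest of the Wnt pathway was read from a list of 131 other genes, of which 65 were tested. That list was chosen with earlier results of these data known, so its counts are given as a description. In limma 30 rose, 11 fell and 24 were not called, beside background shares of 29.5% and 23.5%. The same shares stand beside the counts of each role list below. Their median difference was 0.30, against 0.06 over all tested genes. PTK7, PRICKLE2, LEF1, SP5 and KREMEN2 passed the filter through 1 group alone. For PTK7, PRICKLE2, LEF1 and SP5 that was the group in which they were high, so their p-values are given as a description.

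All 3 tested genes for ligands and their secretion rose. WNT7B was at 9.03, 6.45 and 6.84 FPKM in sgControl and at 23.3, 25.0 and 26.9 FPKM in sgPLOD2 (difference 1.64 ± 0.13 SE, limma adjusted p = 0.000107). WLS, the carrier that brings lipid-modified Wnt proteins to the cell surface, went from 1.43, 1.93 and 1.88 FPKM to 6.66, 6.88 and 7.09 FPKM (1.53 ± 0.10, limma adjusted p = 5.07e-05). PORCN, the enzyme that attaches that lipid, rose by 0.86 ± 0.08 (limma adjusted p = 0.000282). Thus a ligand gene and both secretion genes rose along with the higher WNT5A and WNT5B levels.

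Of 10 tested receptors and co-receptors, 6 rose and 1 fell. PTK7, a kinase-dead receptor of the polarity pathway, was at 0.185, 0.170 and 0.169 FPKM in sgControl and at 5.16, 4.43 and 5.93 FPKM in sgPLOD2 (2.39 ± 0.11 SE, limma adjusted p = 6.81e-06). FZD8 had the reverse pattern, at 12.2, 12.0 and 11.3 FPKM in the controls and down to 1.96, 2.54 and 2.37 FPKM in sgPLOD2 (-1.97 ± 0.10, limma adjusted p = 1.18e-05). MCAM, an adhesion molecule that can bind WNT5A, went from a mean of 12.9 ± 2.05 to 38.9 ± 4.58 FPKM (1.53 ± 0.14, limma adjusted p = 0.000191). FZD6, a Frizzled of the polarity pathway, rose by 1.10 ± 0.15 (limma adjusted p = 0.00116). The co-receptors that DKK1 binds also rose, LRP5 by 0.45 and LRP6 by 0.77 (limma adjusted p = 0.00463 and 0.00338). LRP5 and LRP6 were named after their values were seen.

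Among 15 antagonist genes 3 were tested. DKK3, a divergent relative of DKK1, went from 17.5 ± 0.934 to 45.0 ± 2.38 FPKM (1.32 ± 0.08 SE, limma adjusted p = 3.7e-05), so the DKK transcripts of these cells were almost all DKK3. KREMEN1, a receptor for DKK1, differed by 0.30 ± 0.10 (limma adjusted p = 0.0439), a call that was lost in most other settings. KREMEN2 differed by -0.09 ± 0.11 (limma adjusted p = 0.52).

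In the planar cell polarity core, the list to which VANGL1 belongs, 2 of 10 tested genes rose and 3 fell, with a median of -0.02. The rising genes were PRICKLE1 (1.36 ± 0.390 to 3.75 ± 0.724 FPKM, limma adjusted p = 0.00198) and PRICKLE2 (0.373 ± 0.248 to 2.81 ± 0.194 FPKM, limma adjusted p = 0.000213), whose proteins bind VANGL proteins. The falling genes were PRICKLE3, the polarity scaffold gene SCRIB and DVL1, a Dishevelled through which all Wnt branches pass. DVL1 went from 62.4 ± 3.26 to 35.7 ± 1.44 FPKM (-0.79 ± 0.08 SE, limma adjusted p = 0.000302). Over all tested genes 29.5% were higher and 23.5% lower, so these few calls say little about the core as a set.

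Downstream of the receptors, 12 of 20 tested noncanonical effectors rose and 1, PLCB3, fell, with a median of 0.42. The other 7 were not called: RAC1, MAP2K7, the JNK genes MAPK8 and MAPK9, JUN, CAMK2G and PPP3R1. Over all tested genes 29.5% were higher and 23.5% lower. RHOA, the GTPase of the polarity pathway, went from 202 ± 10.2 to 304 ± 6.87 FPKM (0.59 ± 0.08 SE, limma adjusted p = 0.000953), and the RHOA-dependent kinase genes ROCK1 and ROCK2 rose too. PPP3CA, a catalytic subunit of calcineurin in the calcium branch, went from 4.94 ± 0.807 to 13.1 ± 1.18 FPKM (1.26 ± 0.12, limma adjusted p = 0.000277). Its relative PPP3CB rose by 0.66 ± 0.08 (limma adjusted p = 0.000773) and MAP3K7, the kinase TAK1, by 0.79 ± 0.12 (limma adjusted p = 0.00196).

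In the beta-catenin branch 5 of 14 tested genes were higher and 3 lower, beside 29.5% and 23.5% over all tested genes. CTNNB1, which encodes beta-catenin, was at 6.94, 14.8 and 14.8 FPKM in sgControl and at 26.7, 26.7 and 25.3 FPKM in sgPLOD2 (1.12 ± 0.26 SE, limma adjusted p = 0.00981). As with VANGL1, sgControl replicate 1 was far below the other controls, and without it the difference was 0.78. Of the destruction complex genes, GSK3B rose by 0.86 ± 0.11 (limma adjusted p = 0.000868), AXIN1 fell by 0.74 (limma adjusted p = 0.000588) and the casein kinase gene CSNK1E fell by 0.46 (limma adjusted p = 0.00208). The transcription factor gene LEF1 went from 0.260 ± 0.0807 to 2.90 ± 0.139 FPKM (1.63 ± 0.09, limma adjusted p = 1.48e-05).

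Of 8 tested genes listed as targets of beta-catenin, 2 rose and 3 fell. SP5 went from 5.65 ± 0.136 to 0.733 ± 0.179 FPKM (-1.95 ± 0.10 SE, limma adjusted p = 1.48e-05) and BAMBI from 15.6 ± 1.38 to 4.84 ± 0.346 FPKM (-1.50 ± 0.10, limma adjusted p = 4.52e-05). TNFRSF19 fell by 0.44 (limma adjusted p = 0.0078), while LEF1 and TCF7 rose. LEF1 and TCF7 are also on the beta-catenin branch list and were counted among its higher genes.

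**Figure D5:**
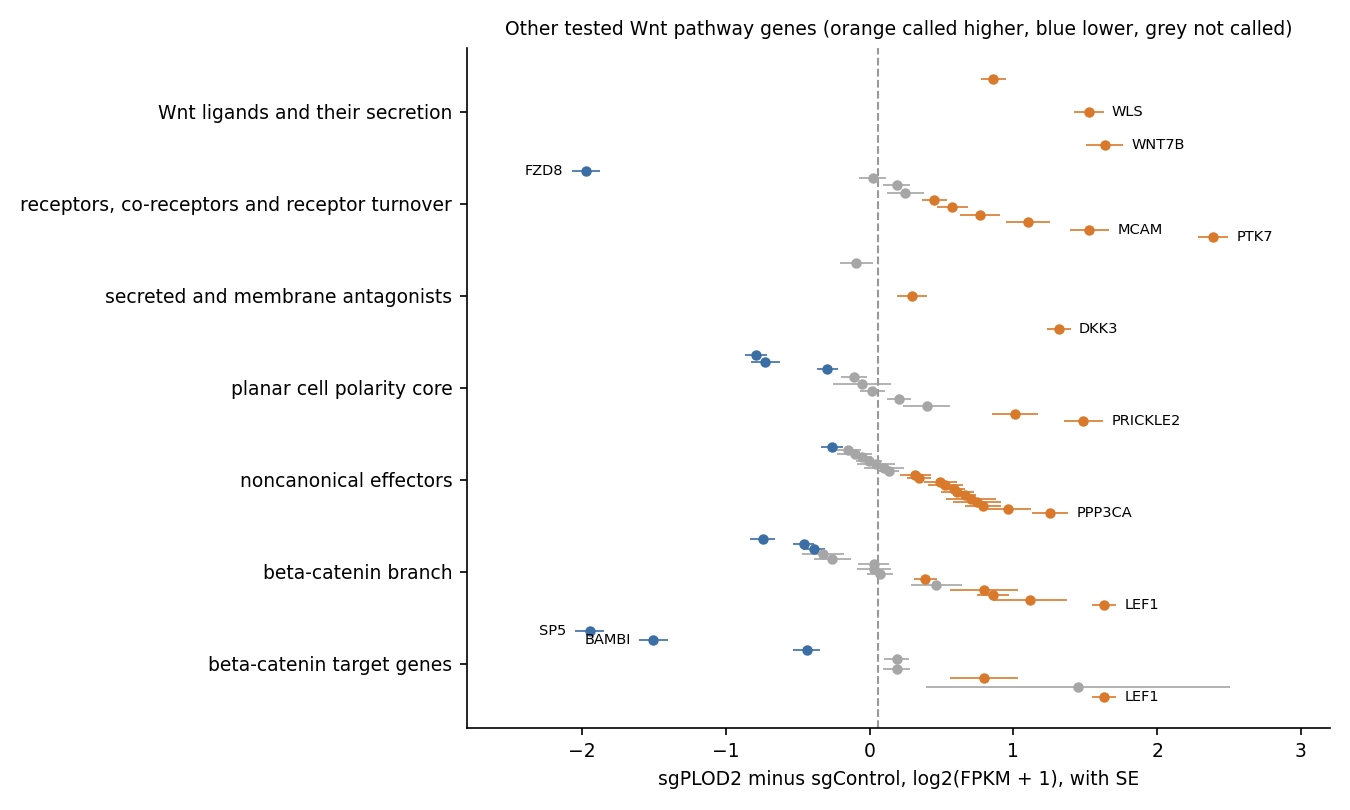
Difference of sgPLOD2 minus sgControl on the log2(FPKM + 1) scale for the other tested Wnt pathway genes by role (points, estimate, orange where called higher, blue lower, grey not called; bars, SE; dashed line, median of all tested genes). Ligands, receptors and noncanonical effectors lie mostly to the right, with FZD8 at -1.97 as the exception among receptors, and the polarity core and beta-catenin lists spread to both sides.

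The other 66 genes of the list were too low to be tested, and 21 of them were listed at 0 in all 6 libraries. In 17 every sgPLOD2 library was above every control, and in 1, NOTUM, every sgPLOD2 library was below. The share of all genes this low that separate in this way was not computed, so nothing is read from these counts. In a limma fit without the filter, in which 14.2% of 28706 genes were higher and 10.1% lower, 45 had a value, 12 were higher and 1 was lower. The following were named after their values were seen. DAAM2, a formin that links Dishevelled to RHOA, was at 0.0022, 0.0133 and 0.0046 FPKM in sgControl and at 0.671, 0.640 and 0.744 FPKM in sgPLOD2 (limma without the filter, adjusted p = 0.000302). Its relative DAAM1 averaged 0.177 ± 0.0264 and 0.670 ± 0.120 FPKM. AXIN2, a common readout of beta-catenin signalling, averaged 0.368 ± 0.0903 and 1.10 ± 0.125 FPKM (limma without the filter, adjusted p = 0.00549). NOTUM, also listed as a target of beta-catenin, went the other way, from 0.353 ± 0.108 to 0.111 ± 0.0369 FPKM (limma without the filter, adjusted p = 0.0304). RNF43, a ligase that removes Frizzled receptors, was listed at 0 in all controls and at 0.0752 to 0.0818 FPKM in sgPLOD2.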

How the data were processed

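RNA from 6 libraries of 786-O cells, 3 per group, had been sequenced after Trizol extraction and a standard Illumina library preparation, per the labels' protocols. The submitters' processing notes name CASAVA, HISAT2 2.1.0, StringTie 1.3.4 and the build GRCh38. How genes were counted, on which strand and with which annotation is not given in the sources used. Per the file headers, the authors' table held an FPKM value per gene and library, which corrects for gene length and depth. The same deposited table held the authors' comparison: a mean normalized count, averaged over the libraries and treated here as a signal, a log2 fold change with its SE, a test score and p-values. FPKM summed to 229485 to 268612 per library. Absolute depth is unknown, so no counting interval is given, and an FPKM of 0 is described as listed at 0.

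The test was limma 3.58.1 (R 4.3.3; lmFit and eBayes, intensity trend) on log2(FPKM + 1) for the 10469 genes whose mean over all libraries reached 1 FPKM, 2-sided, with Benjamini-Hochberg adjustment over all of them and a threshold of 0.05. Differences are sgPLOD2 minus sgControl on this scale, which understates changes of low genes. PLOD2 was also compared by an exact permutation test in scipy 1.17.1. The steps were tested on simulated data. Chromosomes and strands came from GENCODE 29 on GRCh38, and promoter sequences from RefSeq on GRCh38.p14. The comparison with neighbouring and overlapping genes was added after seeing the data.

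The 10 genes, the pathway lists and the marker lists were chosen with earlier results of these data known. Named were the 10 genes, PLOD2, the 4 smallest adjusted p per role list, every listed gene called with a difference of at least 1, and the 5 tested genes nearest to CTHRC1 and to WNT5A. Others were named after their values were seen. Each result was recomputed with a pseudocount of 0.1 or 0.5, without a filter or with a 5 FPKM minimum, and with TPM, median-of-ratios or quantile scaling, other variance models, the replicate number as a block, the authors' deposited comparison, leaving out each library, removal of chromosome medians, and removal of a GC and length trend (mgcv 1.9.3). Matplotlib 3.10.9 drew the figures.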

Additional observations from a re-analysis of the deposited data

How the results depend on the processing

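CTHRC1, WNT5A, WNT5B and ROR1 were called higher under every alternative in which they were tested. With a minimum of 5 FPKM, 5 of the 10 genes were tested and 2 were called higher, because WNT5B and ROR1 were not tested. The same filter left 12 of the other Wnt pathway genes called higher, and 1361 of 5689 tested genes. RYK was the 1 gene called lower when chromosome medians were removed (-0.48), and the 1 gene called lower when the GC and length trend was removed (-0.38). Removal of the GC and length trend turned KREMEN2 from -0.09 to 0.56 (limma adjusted p = 0.00754). The cause was not tested. The authors' deposited comparison called 3884 genes lower, of 22870 with an adjusted p, against 2456 in limma. Scaling moved the median difference of all tested genes from 0.06 to 0.20 with TPM and to -0.02 with median-of-ratios scaling.

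Leaving out each library in turn gave 4 to 6 of the 10 genes called higher and 0 lower, 27 to 30 of the other Wnt genes higher and 9 to 11 lower, 2307 to 3228 of all genes higher and 1920 to 2572 lower, and a PLOD2 difference of -1.81 to -1.47. KREMEN1 lost its call without the filter, with median-of-ratios and quantile scaling, with the GC and length trend removed, in the authors' deposited comparison, with the replicate block, and without any single library other than sgControl replicate 2.

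No clear pairing by replicate number was seen: deviations of same-numbered libraries correlated at 0.0135, 0.135 and -0.0491. Not every library correlated best with its own number, but with 3 libraries per group this cannot exclude a pairing. With the replicate block, 6 of the 10 genes were called higher (FZD7 and VANGL1 added), as were 42 of the other Wnt genes in either direction, 40 of them shared with the 41 called without the block. Reads per library are unknown, so no counting interval is given for values near 0, such as those of DKK1.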
